A study of Mus musculus with 10 samples.

Results

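The 10 genes described here encode the core machinery of the G1 phase of the cell cycle: the D-type cyclins Ccnd1, Ccnd2 and Ccnd3, the E-type cyclins Ccne1 and Ccne2, the kinases Cdk4 and Cdk6, and the inhibitors Cdkn1b, Cdkn2a and Cdkn2c. They were picked out of the table by symbol, from a list of these genes drawn up with earlier results of these data known. All 10 were found among the 46316 genes of the count table, and all 10 were among the 17718 genes with enough counts to be tested. They were read in all 10 libraries.

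D-type cyclins bind CDK4 or CDK6, and these complexes begin the phosphorylation of the retinoblastoma protein RB, which releases E2F transcription factors. E2F then drives the E-type cyclins, whose complexes with CDK2 complete the step into S phase. Inhibitors of the INK4 family, such as p16INK4a and p18INK4c, bind CDK4 and CDK6 directly, while p27Kip1 acts mainly on complexes with CDK2. Germinal centre B cells divide fast and are known to depend on cyclin D3.

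RNA came from B220+ reporter-positive B cells sorted from the spleens of C57BL/6 mice. The pBIC10 mice (3 libraries, 2 females and 1 male) had the genotype p53F/F, Blimp1F/F, IKK2castopF/stopF, Cg1Cre/+ and IL-10F/F, and the pBIC mice (3 libraries, all females) had the same alleles without IL-10F/F. The YC controls (4 libraries, 3 females and 1 male) were YFPstopF/+ and Cg1Cre/+, and their cells were germinal centre B cells collected 10 days after the second of a pair of sheep red blood cell injections given 20 days apart. All groups thus carry Cg1Cre/+, a Cre that the Cγ1 heavy chain locus drives in germinal centre B cells. In the lymphoma groups this Cre removes the floxed p53 and Blimp1 genes and switches on a constitutively active IKK2. In pBIC10 it also deletes the gene of IL-10, so deletion is limited to cells in which Cre was made. The lymphoma mice were collected when moribund, and ages are not in the labels used here.

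The libraries held between 12.6 and 19.1 M counts each (M, mega). Levels are counts per M counts (CPM), scaled by the trimmed mean of M-values (TMM), and means are given ± SD with n = 3 for pBIC10 and pBIC and n = 4 for YC. A gene was called higher or lower at an adjusted p under 0.05 in edgeR's quasi-likelihood test, and every adjusted p comes from that test unless another tool is named. Log2 fold changes carry their standard error. Trp53, the deleted tumour suppressor gene, stood at 36.6 to 49.7 CPM in pBIC10, 18.3 to 53.3 CPM in pBIC and 176 to 198 CPM in YC. Il10 stood at 1.99 to 4.77 CPM in pBIC10, 6.84 to 19.4 CPM in pBIC and 4.23 to 9.98 CPM in YC. Each lymphoma group shared 1 leading heavy chain variable segment, Ighv7-3 with 67.4 to 70.5% of such counts in pBIC10 and Ighv8-11 with 51.6 to 59.1% in pBIC, while the 4 YC libraries had 4 different leaders of 3.73 to 10.9%. Whether the 3 tumours of a lymphoma group arose independently was not tested, so n counts libraries. The p-values measure only the spread between these libraries. Only pBIC10 was sequenced for this series, while libraries of the other groups come from an earlier one, so series and genotype cannot be told apart in either comparison of pBIC10. In bulk RNA, fewer cells of a kind and less RNA per cell cannot be told apart.

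In IL-10-deficient against IL-10-competent lymphoma, 3 of the 10 genes were higher (Ccnd1, Ccnd3 and Cdkn2c) and 2 were lower (Cdk4 and Cdkn2a). Over all genes tested, 30.7% were called in this comparison, 15.6% higher and 15.1% lower. In pBIC against YC, 5 were higher (Ccnd1, Ccne1, Cdk4, Cdk6 and Cdkn2a) and 2 were lower (Ccnd3 and Cdkn2c), beside 26.4% and 27.7% of all genes, or 54.1% in either direction. In pBIC10 against YC, 4 were higher (Ccnd1, Ccne2, Cdk6 and Cdkn2a) and 2 were lower (Ccnd3 and Cdkn2c), beside 24.8% and 26.9% of all genes, or 51.7% in either direction. The libraries of both groups did not overlap for 6, 7 and 7 of the 10 genes, against 41.8%, 54.2% and 61.0% of all genes tested. The median log2 fold change of the 10 genes was 0.41, 0.69 and 0.38 in these comparisons, beside −0.01, 0.02 and 0.01 over all genes. Each pair of comparisons shares a group of libraries, so the calls are not independent of each other.

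**Figure D1:**
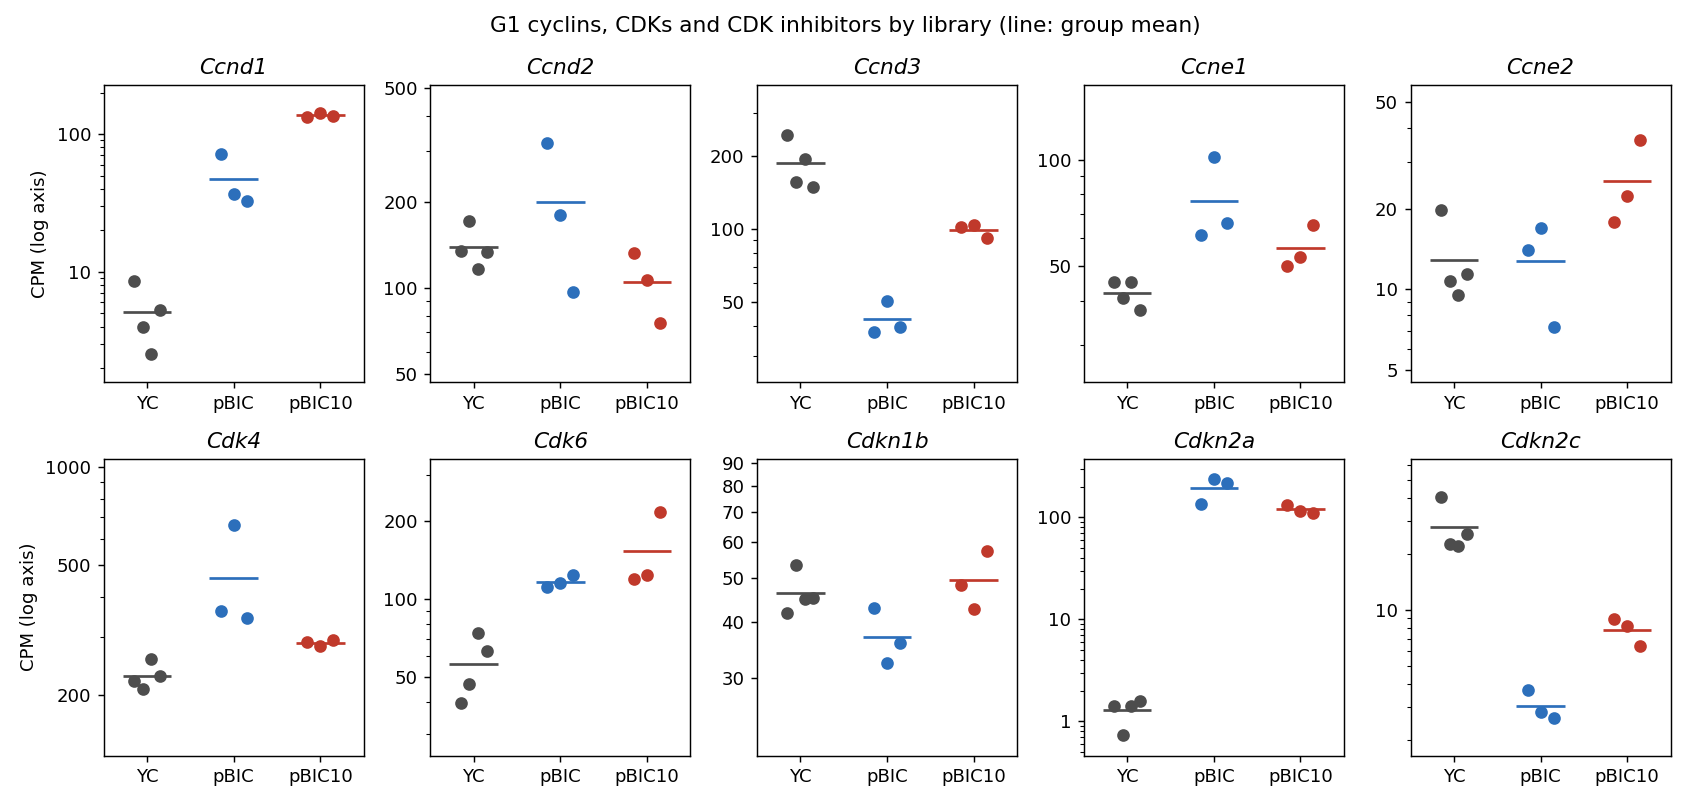
Level of each of the 10 genes in every library (points, CPM on a log axis whose range differs between panels) with the group mean (line). Ccnd1, Ccne1, Cdk4, Cdk6 and Cdkn2a separate all lymphoma libraries above the YC libraries, and Ccnd3 and Cdkn2c separate them below. Ccnd2 and Cdkn1b overlap in all 3 comparisons.

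Ccnd1 encodes cyclin D1, which normal B cells make little of. Its level was 134, 142 and 136 CPM in pBIC10, against 71.4, 36.9 and 32.9 CPM in pBIC and 8.53, 4.01, 2.55 and 5.28 CPM in YC. The 3 groups formed 3 steps without overlap, and the pBIC10 libraries lay close together while the first pBIC library lay well above the other two. Ccnd1 was 2.92-fold higher in pBIC10 than in pBIC (log2 fold change 1.54 ± 0.37, adjusted p = 0.00738). It was 9.23-fold higher in pBIC than in YC (3.21 ± 0.36, adjusted p = 2.7e-05) and 26.9-fold higher in pBIC10 than in YC (4.75 ± 0.38, adjusted p = 2.38e-06). A neighbour on the opposite strand, LTO1, shares 21.6% of the 50-base windows of Ccnd1 exons, and the strand setting of the counting is not given in the sources used here. LTO1 averaged 11.9, 8.59 and 9.84 CPM in pBIC10, pBIC and YC and was called in no comparison (adjusted p = 0.192 to 0.526).

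Ccnd2 encodes cyclin D2, the D-type cyclin that follows antigen receptor signals in B cells. It read 133, 107 and 75.3 CPM in pBIC10, 320, 180 and 97.1 CPM in pBIC, and 134, 172, 117 and 134 CPM in YC. The pBIC libraries spanned more than the range of both other groups, and no pair of groups was separate. None of its differences was called in edgeR: −0.93 ± 0.36 in pBIC10 against pBIC (adjusted p = 0.0680, 95% interval −1.70 to −0.15), 0.52 ± 0.33 in pBIC against YC (adjusted p = 0.203, −0.20 to 1.23) and −0.41 ± 0.33 in pBIC10 against YC (adjusted p = 0.324, −1.14 to 0.32). DESeq2 called the first of them (adjusted p = 0.0403). The third pBIC library, the lowest of its group, decided 2 of these: without it Ccnd2 was lower in pBIC10 than in pBIC (−1.25, adjusted p = 0.00545) and higher in pBIC than in YC (0.85, adjusted p = 0.0171).

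Ccnd3 encodes cyclin D3, the D-type cyclin of dividing germinal centre B cells. Its levels were 102, 104 and 91.6 CPM in pBIC10, 37.6, 50.5 and 39.4 CPM in pBIC, and 245, 157, 194 and 150 CPM in YC. The groups again did not overlap, in the order YC, pBIC10, pBIC. Ccnd3 was 4.39-fold lower in pBIC than in YC (−2.13 ± 0.20, adjusted p = 5.01e-06), 1.88-fold lower in pBIC10 than in YC (−0.91 ± 0.19, adjusted p = 0.00159) and 2.34-fold higher in pBIC10 than in pBIC (1.22 ± 0.21, adjusted p = 0.000685). Its processed pseudogene Ccnd3-ps shares 1.52% of the Ccnd3 windows and followed the same steps, with means of 18.9 CPM in pBIC10, 8.58 CPM in pBIC and 35.8 CPM in YC. Reads of the pair may have been split between them, and with their counts summed the 3 calls of Ccnd3 stood. Exons of Bysl on the opposite strand share 3.31% of the Ccnd3 windows. Bysl averaged 60.2 CPM in pBIC10, 78.5 CPM in pBIC and 55.3 CPM in YC and was higher in pBIC than in YC (0.51 ± 0.15, adjusted p = 0.0144), where Ccnd3 was lower. The window upstream of its first start site is shown because it holds the 1 match to the FOXO motif among the promoters of these genes, and FOXO factors are regulators of G1 genes whose levels are given with the pathway. It lies at chr17:47504801-47505050 (GRCm38.p6, + strand, from RefSeq), the capitals mark TGTTTAC, and the match begins 243 bases before the start. Such a match is present in 3.17% of all promoter windows. The window of the second Ccnd3 start held no match to this motif, and gene-level counts do not show which start was used.
Ccnd3: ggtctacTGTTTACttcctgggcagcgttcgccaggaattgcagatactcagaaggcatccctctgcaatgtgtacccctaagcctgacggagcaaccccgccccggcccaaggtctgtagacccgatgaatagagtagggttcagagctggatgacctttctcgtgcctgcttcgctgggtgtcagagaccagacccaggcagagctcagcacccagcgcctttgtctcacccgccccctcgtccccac

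Within a library, the shares of the 3 D-type cyclins differed between groups, while their summed CPM, not divided by length, overlapped. Divided by the length of all annotated exons, Ccnd1 made up 52.5, 56.5 and 61.0% of the D-type cyclin signal in the pBIC10 libraries, 28.4, 23.9 and 32.0% in pBIC, and 4.11, 2.31, 1.54 and 3.45% in YC. Ccnd3 made up 21.9 ± 0.413% in pBIC10, 15.4 ± 6.57% in pBIC and 56.9 ± 7.63% in YC. Ccnd2 made up 21.4 ± 4.55%, 56.5 ± 8.31% and 40.3 ± 7.81%. The share of Ccnd1 thus did not overlap between any 2 groups, and that of Ccnd2 was lower in all 3 pBIC10 libraries than in all others. The share of Ccnd2 overlapped between pBIC10 and YC when counts were not divided by length (24.9 to 36.0% against 34.6 to 51.7%) and when they were divided by the length of the principal transcript (13 to 19.9% against 15.2 to 26.5%). Which cyclin leads within a library depends on the length used. With the principal transcript (2.113 kb for Ccnd3, against 8.775 kb of exons), Ccnd3 led in pBIC10 with 46.9% against 36.7% for Ccnd1. Under that length the pBIC means were 46.5% for Ccnd2 and 34.1% for Ccnd3, but Ccnd2 led in 2 of the 3 pBIC libraries and Ccnd3 in the other (43.6% against 35.9%). Ccnd3 led in all 4 YC libraries, with a mean of 78.6%. The summed level of the 3 genes, not divided by length, was 341 ± 34.5 CPM in pBIC10, 289 ± 131 CPM in pBIC and 331 ± 42.2 CPM in YC. These sums overlapped, but they are in another unit than the shares and do not show whether sums per kb overlap.

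**Figure D2:**
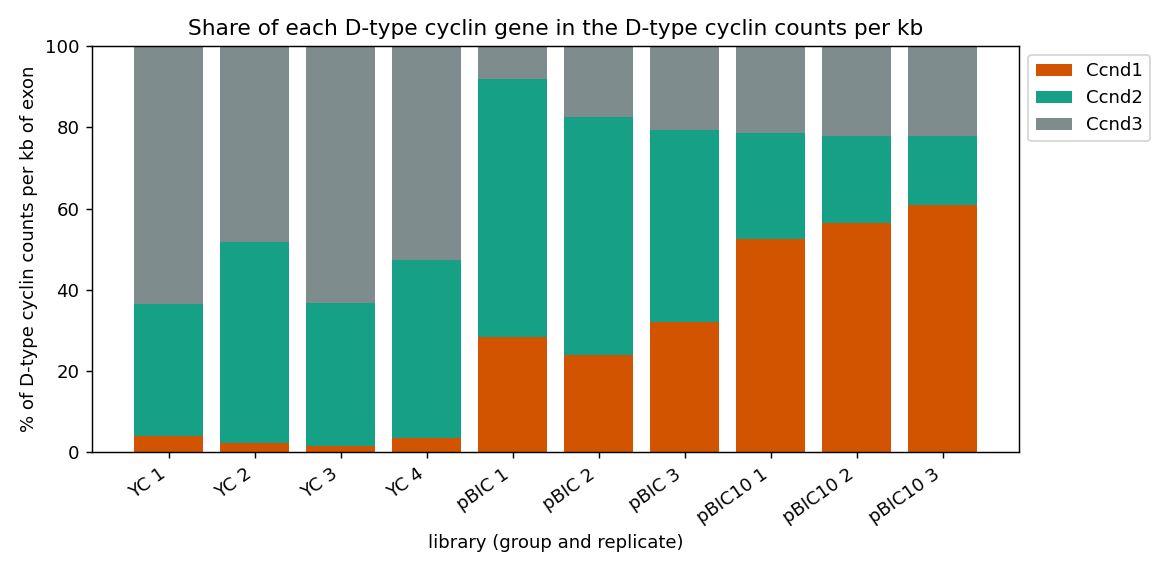
Share of Ccnd1, Ccnd2 and Ccnd3 in the D-type cyclin counts of each library after division by exon length (stacked bars, 1 bar per library, % on the vertical axis). The Ccnd1 share runs from 1.54 to 4.11% in YC, 23.9 to 32.0% in pBIC and 52.5 to 61.0% in pBIC10.

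Ccne1 encodes cyclin E1, the CDK2 partner at the entry to S phase. It stood at 50.1, 53.0 and 65.3 CPM in pBIC10, against 61.3, 102 and 66.1 CPM in pBIC and 45.2, 40.6, 45.1 and 37.7 CPM in YC. All lymphoma libraries lay above all YC libraries, and the lymphoma groups overlapped. It was 1.81-fold higher in pBIC than in YC (0.86 ± 0.19, adjusted p = 0.00222). The difference of pBIC10 from YC was 0.41 ± 0.19 (adjusted p = 0.0864, 95% interval 2.09e-05 to 0.83) and that from pBIC −0.44 ± 0.21 (adjusted p = 0.120, −0.89 to 0.000821). In a fit of pBIC10 and YC alone, Ccne1 was called higher (0.40, adjusted p = 0.0265).

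Ccne2 encodes cyclin E2, a close relative of cyclin E1. It read 17.8, 22.4 and 36.2 CPM in pBIC10, 14, 17.0 and 7.23 CPM in pBIC, and 19.8, 10.7, 9.55 and 11.4 CPM in YC. The third pBIC10 library, from the male, was the highest of all and the first YC library overlapped the pBIC10 range. Ccne2 was 1.98-fold higher in pBIC10 than in YC (0.99 ± 0.34, adjusted p = 0.0281), but the call was lost without that pBIC10 library (0.66, adjusted p = 0.155), without the YC replicates 2, 3 or 4 (adjusted p = 0.0778, 0.0786 and 0.0718) with sex as a covariate (0.93, adjusted p = 0.0518) and among females alone (0.54, adjusted p = 0.285). Against pBIC the difference was of the same size, 1.0 ± 0.37 (adjusted p = 0.0565, 95% interval 0.20 to 1.80). It was called with DESeq2 (adjusted p = 0.0293), limma-voom (adjusted p = 0.0380), no filter on low counts (adjusted p = 0.0186) and without the first pBIC10 library (1.21, adjusted p = 0.0436). The difference of pBIC from YC was −0.02 ± 0.35 (adjusted p = 0.972, −0.77 to 0.73). The ratio of Ccne1 to Ccne2 on the log2 scale was 1.19 ± 0.324 in pBIC10, 2.63 ± 0.531 in pBIC and 1.77 ± 0.439 in YC, without overlap between the lymphoma groups. Exons of Ints8 on the opposite strand share 14.4% of the Ccne2 windows, and Ints8 was called in no comparison.

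Cdk4 encodes a kinase partner of the D-type cyclins. It stood at 289, 282 and 294 CPM in pBIC10, against 362, 663 and 345 CPM in pBIC and 220, 208, 258 and 229 CPM in YC. The second pBIC library stood far above all others, and the groups did not overlap. Cdk4 was 2.0-fold higher in pBIC than in YC (1.0 ± 0.21, adjusted p = 0.00136). It was lower in pBIC10 than in pBIC (−0.66 ± 0.22, adjusted p = 0.0387), a call lost in 9 of 20 alternatives. These included leaving out the second pBIC library, which moved the difference to −0.32 (adjusted p = 0.130), or any of the 3 pBIC10 libraries (adjusted p = 0.0977, 0.110 and 0.0790). Against YC the pBIC10 level differed by 0.34 ± 0.21 (adjusted p = 0.192, 95% interval −0.11 to 0.78), and this was called in a fit of those groups alone (adjusted p = 0.0297). Tspan31, on the opposite strand, shares 17.0% of the Cdk4 windows and averaged 32.9 CPM in pBIC10, 60.4 CPM in pBIC and 32.2 CPM in YC. It was higher in pBIC than in YC (0.91 ± 0.33, adjusted p = 0.0318), and its difference between the lymphomas was −0.88 ± 0.35 (adjusted p = 0.0779). Its part in the Cdk4 counts was not tested.

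The window upstream of the Cdk4 start is shown for its E-boxes, the motif CACGTG bound by MYC and other factors of its family, which was searched after the sequences had been seen. It lies at chr10:127063285-127063534 (GRCm38.p6, + strand, from RefSeq), and capitals mark its 4 E-boxes. Of 32851 RefSeq mouse promoter windows of the same length, 6.02% held at least 1 E-box and 7 windows held 4 or more. The Cdk6 window held 1, at 220 bases before its start, and those of the other members in the table held none.
Cdk4: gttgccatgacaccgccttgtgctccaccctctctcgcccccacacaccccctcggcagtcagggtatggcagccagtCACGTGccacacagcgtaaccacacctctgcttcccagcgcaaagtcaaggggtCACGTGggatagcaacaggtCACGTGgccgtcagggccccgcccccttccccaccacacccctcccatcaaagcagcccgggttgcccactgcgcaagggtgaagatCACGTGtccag

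Cdk6, which encodes the second kinase partner of D-type cyclins, read 119, 124 and 217 CPM in pBIC10, 111, 115 and 123 CPM in pBIC, and 39.7, 46.8, 74.0 and 63.0 CPM in YC. Every lymphoma library lay above every YC library. Cdk6 was 2.08-fold higher in pBIC than in YC (1.06 ± 0.24, adjusted p = 0.00273) and 2.74-fold higher in pBIC10 than in YC (1.45 ± 0.24, adjusted p = 0.000296). The lymphoma groups overlapped, with a difference of 0.40 ± 0.26 (adjusted p = 0.272, 95% interval −0.17 to 0.96), and the third pBIC10 library alone stood apart. The log2 ratio of Cdk6 to Cdk4 was −0.97 ± 0.462 in pBIC10, −1.91 ± 0.550 in pBIC and −2.07 ± 0.308 in YC, so it was higher in all 3 pBIC10 libraries than in all others.

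Cdkn2a showed the widest span of the 10 genes. It encodes 2 proteins from different first exons, p16INK4a, which inhibits CDK4 and CDK6, and p19ARF, which restrains MDM2 and thereby stabilises p53. Gene-level counts pool both. Cdkn2a stood at 131, 117 and 111 CPM in pBIC10 and at 135, 236 and 217 CPM in pBIC. In YC it had 19, 9, 20 and 22 counts, or 1.41, 0.74, 1.41 and 1.57 CPM, above the 0.212 to 0.246 CPM that 3 counts are worth there. Every lymphoma library lay far above every YC library. The pBIC10 libraries all lay below the pBIC libraries, but the first pBIC library (135 CPM) was close to the first pBIC10 library (131 CPM). The gene was 151-fold higher in pBIC than in YC (7.24 ± 0.28, adjusted p = 8.62e-09) and 92.1-fold higher in pBIC10 than in YC (6.53 ± 0.27, adjusted p = 2.51e-08). Between the lymphomas it was 1.64-fold lower in pBIC10 (−0.71 ± 0.23, adjusted p = 0.0294). That smaller difference was lost in 9 of 20 alternatives, among them sex as a covariate (adjusted p = 0.0579), females alone (adjusted p = 0.105) and leaving out any pBIC10 library (adjusted p = 0.0562, 0.0938 and 0.0878) or the second or the third pBIC library (adjusted p = 0.0825 and 0.0748).

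The windows upstream of both Cdkn2a start sites are shown because the counts pool transcripts from both. The first, upstream of the p19ARF start, lies at chr4:89294620-89294869 and the second, upstream of the p16INK4a start, at chr4:89282193-89282442 (GRCm38.p6, − strand, from RefSeq). Capitals mark the 1 match to an E2F motif (TTTCCCGC, TTTGGCGC, TTTCGCGC or TTTGCCGC) found among the promoters of these genes, which begins 99 bases before the first start. Such a match is present in 1.86% of all promoter windows.
Cdkn2a first start: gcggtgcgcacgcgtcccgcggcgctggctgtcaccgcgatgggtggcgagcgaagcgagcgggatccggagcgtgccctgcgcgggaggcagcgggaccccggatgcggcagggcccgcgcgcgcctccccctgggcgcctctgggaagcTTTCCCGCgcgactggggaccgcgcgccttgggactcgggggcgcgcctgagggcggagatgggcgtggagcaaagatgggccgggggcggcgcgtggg
Cdkn2a second start: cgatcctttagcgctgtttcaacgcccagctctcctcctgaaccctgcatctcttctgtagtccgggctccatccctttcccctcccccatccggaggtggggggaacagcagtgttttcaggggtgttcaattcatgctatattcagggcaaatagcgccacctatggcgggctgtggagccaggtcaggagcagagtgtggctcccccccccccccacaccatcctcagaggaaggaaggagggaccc

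Cdkn2c encodes p18INK4c, an INK4 inhibitor that restrains division as B cells become plasma cells. It read 8.91, 8.20 and 6.36 CPM in pBIC10 and 3.70, 2.83 and 2.62 CPM in pBIC, against 40.8, 22.8, 22.2 and 25.7 CPM in YC. The groups did not overlap and followed the same order as those of Ccnd3. Cdkn2c was 9.11-fold lower in pBIC than in YC (−3.19 ± 0.30, adjusted p = 3.99e-06) and 3.56-fold lower in pBIC10 than in YC (−1.83 ± 0.27, adjusted p = 0.000127). It was 2.56-fold higher in pBIC10 than in pBIC (1.36 ± 0.29, adjusted p = 0.00358). The window upstream of its first start, at chr4:109666757-109667006 (GRCm38.p6, − strand, from RefSeq), is shown beside that of Ccnd3, which it followed in all 3 comparisons. It held no match to any motif searched and has a GC content of 77.2%, against 59.6% for the Ccnd3 window. The windows of the second starts, not shown, go the other way, with 42.8% for Cdkn2c and 64.8% for Ccnd3, and neither held a match.
Cdkn2c: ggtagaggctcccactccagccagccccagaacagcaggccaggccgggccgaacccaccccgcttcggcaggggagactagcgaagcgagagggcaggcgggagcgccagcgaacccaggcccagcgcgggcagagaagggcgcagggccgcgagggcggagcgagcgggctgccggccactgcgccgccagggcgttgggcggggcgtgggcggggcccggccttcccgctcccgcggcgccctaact

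Besides E2F and the E-box, other motifs were searched on both strands. They were FOXO (TGTTTAC, 3.17% of all promoter windows), CRE (TGACGTCA, 1.55%), AP-1 (TGANTCA, 6.75%) and NF-kB (GGGRNNYYCC, 7.25%). In these letters R is A or G, Y is C or T and N is any base. No window of these genes held a match to CRE, AP-1 or NF-kB, and no marked matches overlap in the windows shown. Of the 10 genes, 7 were in the promoter table, with 10 start sites. A match describes letters and is not a shown binding site.

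Cdkn1b, which encodes p27Kip1, was the flattest of the 10 genes. It stood at 48.2, 42.8 and 57.4 CPM in pBIC10, against 43.0, 32.3 and 35.9 CPM in pBIC and 41.9, 53.4, 44.9 and 45.2 CPM in YC. All groups overlapped. The difference was 0.42 ± 0.18 in pBIC10 against pBIC (adjusted p = 0.101, 95% interval 0.02 to 0.81), −0.32 ± 0.17 in pBIC against YC (adjusted p = 0.129, −0.69 to 0.05) and 0.09 ± 0.17 in pBIC10 against YC (adjusted p = 0.668, −0.27 to 0.46). The first of these was called without the first pBIC library (0.55, adjusted p = 0.0414). The log2 ratio of Cdkn2c to Cdkn1b was −2.66 ± 0.442 in pBIC10, −3.60 ± 0.141 in pBIC and −0.77 ± 0.518 in YC, without overlap between groups.

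**Figure D3:**
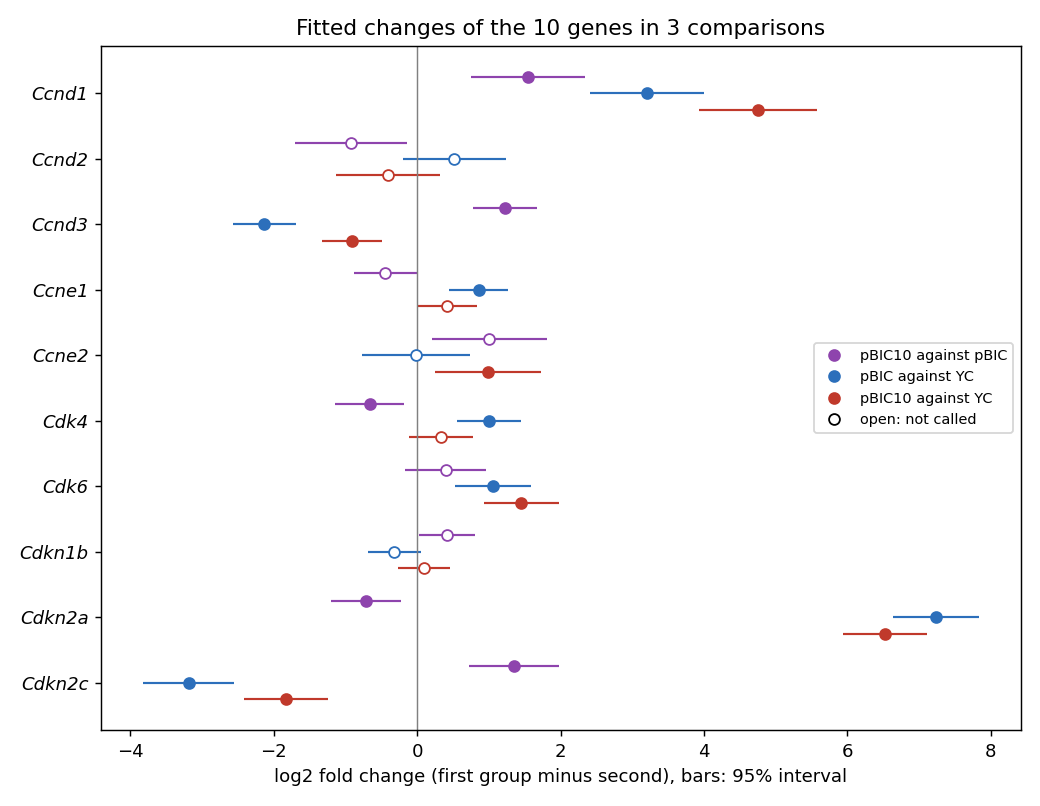
Fitted log2 fold change of each gene in the 3 comparisons, with 95% intervals (bars); filled points were called at an adjusted p under 0.05 and open points were not. Cdkn2a and Ccnd1 lie farthest to the right against YC, Cdkn2c and Ccnd3 farthest to the left, and Ccnd2 and Cdkn1b have open points in all 3.

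Compared per kb of exon, the order of the genes changed between groups. In YC, Cdk4 led with 70.4 ± 6.51 CPM per kb, followed by Ccnd3 with 21.3 ± 4.99, and Cdkn2a and Ccnd1 came last with 1.09 ± 0.317 and 1.08 ± 0.541. In pBIC, Cdkn2a and Cdk4 led with 167 ± 45.8 and 141 ± 55.0 CPM per kb and overlapped, and Cdkn2c came last with 1.14 ± 0.213. In pBIC10, Cdkn2a led with 102 ± 9.03 CPM per kb, followed without overlap by Cdk4 with 88.9 ± 1.81, Ccnd1 with 29.1 ± 0.932 and Ccne1 with 21.1 ± 3.02. The next 4 there (Ccnd3, Ccnd2, Cdk6 and Cdkn1b) stood between 10.9 and 11.3 CPM per kb and overlapped. With principal transcripts in place of all exons, Cdk4 and Cdkn2a overlapped in both lymphoma groups, and Ccnd3 stood above Ccnd1 in pBIC10 (47.0 ± 3.21 against 36.7 ± 1.17 CPM per kb).

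Each of the other 4 CDK inhibitors was called in at least 1 comparison. Cdkn1a, which encodes the p53 target p21Cip1, averaged 11.2 ± 5.26 CPM in pBIC10, 1.45 ± 1.40 CPM in pBIC and 5.84 ± 2.18 CPM in YC. It was higher in pBIC10 than in pBIC (2.96 ± 0.63, adjusted p = 0.00365) and lower in pBIC than in YC (−2.01 ± 0.59, adjusted p = 0.0124). Cdkn2b, the INK4 gene beside Cdkn2a, followed it, with means of 1.09 ± 0.237, 2.87 ± 0.611 and 0.699 ± 0.202 CPM, higher in pBIC than in YC (2.02 ± 0.39, adjusted p = 0.000897) and lower in pBIC10 than in pBIC (−1.39 ± 0.41, adjusted p = 0.0208). Its difference of pBIC10 from YC was 0.62 ± 0.41 (adjusted p = 0.219). Cdkn2d, which encodes the INK4 inhibitor p19INK4d, followed the steps of Cdkn2c, at 8.65 ± 1.15, 5.17 ± 0.793 and 27.3 ± 4.50 CPM, and was called in all 3 comparisons (log2 fold changes 0.74, −2.40 and −1.66). Cdkn1c, which encodes p57Kip2, averaged 0.0342 CPM in pBIC10, less than 3 counts are worth, 0.327 CPM in pBIC and 0.970 CPM in YC, and was lower in pBIC10 than in YC (adjusted p = 0.00253). In all, 2 of these 4 genes were higher and 1 lower in pBIC10 against pBIC, 1 and 2 in pBIC against YC, and 0 and 2 in pBIC10 against YC. Among all genes tested, 30.7%, 54.1% and 51.7% were called in these comparisons. The count of 2 higher fell to 1 without the first or second pBIC10 library or the first pBIC library. The count of 1 lower there fell to 0 without the first pBIC10 or the second pBIC library and was 2 without the first pBIC library.

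Among the pocket proteins, Rb1, the gene of RB itself, was higher in pBIC10 than in both other groups. It averaged 134 ± 42.8 CPM in pBIC10, 44.5 ± 18.0 CPM in pBIC and 46.6 ± 6.86 CPM in YC, with no overlap of pBIC10 with either group. The differences were 1.59 ± 0.30 from pBIC (adjusted p = 0.00146) and 1.52 ± 0.27 from YC (adjusted p = 0.00047), while pBIC differed from YC by −0.06 ± 0.27 (adjusted p = 0.857). Its relatives Rbl1 and Rbl2 were called in no comparison, although 1 of the 3 pocket protein genes was called lower in pBIC than in YC without the third YC library.

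Of the 10 E2F and DP factors, 5 were higher and 1 was lower in pBIC10 than in pBIC, 3 were higher and 4 lower in pBIC than in YC, and 2 were higher and 1 lower in pBIC10 than in YC. These counts stand beside 30.7%, 54.1% and 51.7% of all genes tested that were called in either direction. The 4 genes lower in pBIC than in YC were the activators E2f1 and E2f2 and the repressors E2f7 and E2f8, and the same 4 were higher in pBIC10 than in pBIC. E2f2 averaged 244 ± 38.1 CPM in pBIC10, 73.2 ± 20.3 CPM in pBIC and 189 ± 27.9 CPM in YC, and E2f7 averaged 19.0 ± 1.53, 5.12 ± 0.725 and 22.7 ± 3.74 CPM. For these 4 genes the pBIC10 level differed from YC by −0.26 to 0.37 on the log2 scale and was not called (adjusted p = 0.146 to 0.850). The DP partners, which E2F needs to bind DNA, differed in pattern: Tfdp1 was higher than in YC in both lymphomas (1.02 and 1.23), and Tfdp2 was higher in pBIC10 than in pBIC (1.70 ± 0.34, adjusted p = 0.00215) and than in YC (2.32 ± 0.32, adjusted p = 6.44e-05). E2f6, a repressor, moved with Cdk4, higher in pBIC than in YC (0.73) and lower in pBIC10 than in pBIC (−0.80). The 1 gene lower in pBIC10 than in YC, E2f5 (−0.58, adjusted p = 0.0277), was no longer called when any 1 pBIC10 library or the YC library 1, 3 or 4 was left out. The count higher in pBIC than in YC was 5 without the second pBIC library, and that lower in pBIC10 than in pBIC was 2 without the third pBIC10 library.

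**Figure D4:**
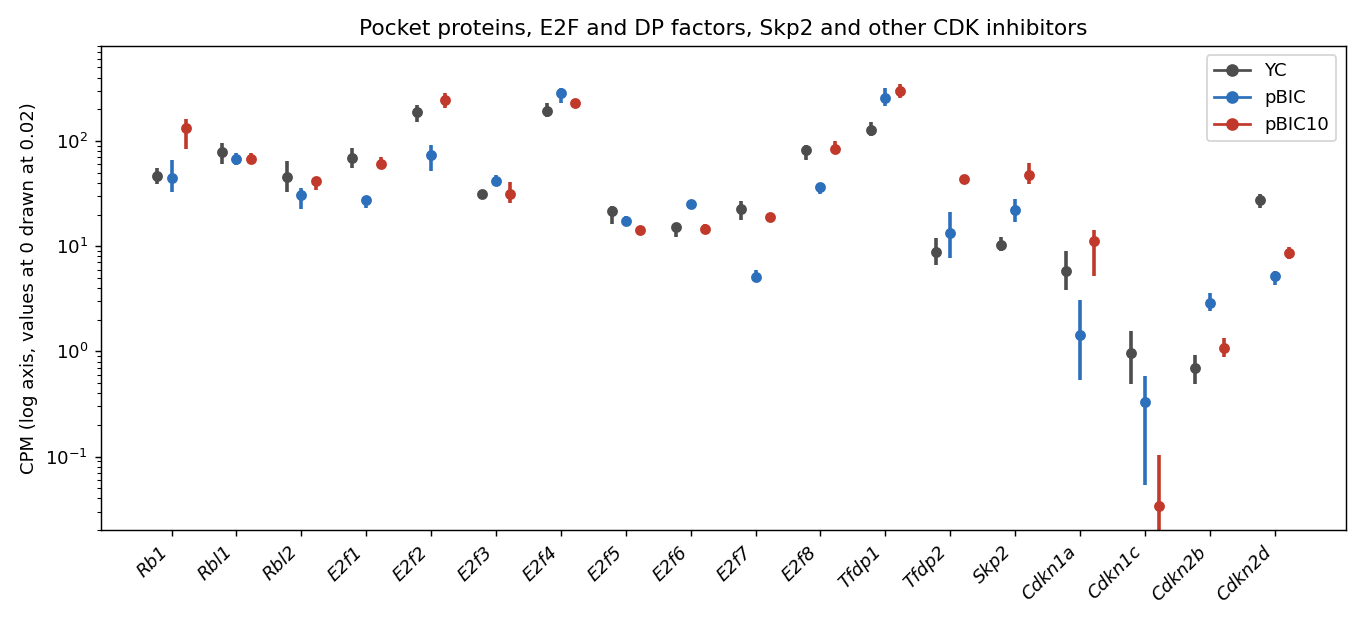
Mean level (points) and range over libraries (bars) of the pocket proteins, E2F and DP factors, Skp2 and the other CDK inhibitors in each group, in CPM on a log axis with 0 drawn at 0.02. E2f1, E2f2, E2f7 and E2f8 dip in pBIC, and Rb1, Tfdp2 and Skp2 are highest in pBIC10.

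In the list of 13 genes for the turnover of G1 cyclins and p27Kip1, 3 were higher and 1 lower in pBIC10 against pBIC, 2 and 2 in pBIC against YC, and 4 and 4 in pBIC10 against YC. Over all genes tested, 30.7%, 54.1% and 51.7% were called, so the list was near the general share between the lymphomas and below it in pBIC against YC. Skp2, the F-box protein that marks p27Kip1 for degradation, was higher in all 3 comparisons, with 47.3 ± 12.2 CPM in pBIC10, 22.2 ± 5.68 CPM in pBIC and 10.2 ± 1.45 CPM in YC (log2 fold changes 1.09, 1.13 and 2.22). Fbxw7, the F-box protein that marks cyclin E and MYC, was lower in both lymphomas than in YC (−1.20 and −1.23, adjusted p = 0.00039 and 0.00032). Usp28, a deubiquitinase that opposes it, was lower in pBIC than in YC (−1.43) and higher in pBIC10 than in pBIC (1.28). Cul3, a ligase scaffold, was higher in pBIC10 than in both other groups (0.99 and 0.83). The 4 lower in pBIC10 than in YC were 2 without any 1 pBIC10 library or without the second or the third YC library. The 2 higher in pBIC than in YC were 6 without the first pBIC library, and the 1 lower in pBIC10 than in pBIC (Cks2, −0.83) was lost without the first or second pBIC10 library or the second pBIC library.

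CDK2 itself was called in no comparison. Of the 5 genes for CDK2, its activating phosphatase and the CDK-activating kinase, 4 were higher in pBIC than in YC and 0 lower, among them all 3 subunits of the activating kinase: Cdk7 (1.01 ± 0.16), Ccnh (0.94 ± 0.20) and Mnat1 (0.90 ± 0.20). Cdk7 and Ccnh were also higher in pBIC10 than in YC (0.85 and 0.59). Mnat1 was lower in pBIC10 than in pBIC (−0.94 ± 0.22, adjusted p = 0.00536), the 1 call of this list there. Among all genes tested, 26.4% were higher in pBIC than in YC and 24.8% in pBIC10 than in YC. Between the lymphomas, 15.1% were lower in pBIC10. In either direction, 54.1%, 51.7% and 30.7% were called in these comparisons. The count of 2 higher in pBIC10 than in YC fell to 1 without the third pBIC10 library or without the first or second YC library.

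Among 11 upstream regulators, 3 were higher and 1 lower in pBIC10 against pBIC, and 2 were higher and 5 lower in each lymphoma against YC. Those 5 include Trp53 (−2.60 for pBIC and −2.10 for pBIC10), the floxed gene that Cre removes in both lymphomas, so its call follows from the genotype. The 5 genes were not all the same, as Ikzf3 was called lower only for pBIC (−0.84) and Ezh2 only for pBIC10. Myc, whose product drives Cdk4 and Ccnd2, averaged 2046 ± 1013 CPM in pBIC10, 742 ± 97.6 CPM in pBIC and 309.7 ± 102 CPM in YC and was higher at each step (1.46 ± 0.33, 1.26 ± 0.30 and 2.72 ± 0.31). Foxo1, which restrains G1 entry, followed the order of Ccnd3 and Cdkn2c, with 100.1 ± 4.41, 33.6 ± 6.55 and 282 ± 29.0 CPM (1.57, −3.07 and −1.50, all called). Bach2, a transcriptional repressor of B cells, averaged 82.4 ± 14.8, 12.4 ± 8.28 and 247 ± 17.6 CPM (2.74, −4.32 and −1.59, all called). Bmi1, a polycomb protein known to silence Cdkn2a, was higher in both lymphomas than in YC (1.40 and 0.67) and lower in pBIC10 than in pBIC (−0.74). Ezh2, the polycomb methyltransferase, was lower in pBIC10 than in YC (−1.17 ± 0.32, adjusted p = 0.00889). The 3 higher in pBIC10 than in pBIC were 6 without the third pBIC library, and the 1 lower was 2 without that library or the third pBIC10 library.

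Over all genes tested, 15.6% were higher and 15.1% lower in pBIC10 than in pBIC, 26.4% and 27.7% in pBIC against YC, and 24.8% and 26.9% in pBIC10 against YC. Of 20 genes that E2F drives in S phase, 4 were higher and 0 lower in pBIC10 than in pBIC, among them the helicase subunits Mcm6 (0.99 ± 0.23), Mcm3 (0.92 ± 0.24) and Mcm2 (0.82 ± 0.27). The list had 1 higher (Rrm1, 0.53) and 6 lower in pBIC against YC, among them Cdt1 (−1.25 ± 0.30), Mybl2 (−0.62 ± 0.16) and Mcm5 (−0.74 ± 0.19), and 1 higher (Mcm6, 0.95) and 4 lower in pBIC10 against YC. Without the second pBIC library the list had 7 higher in pBIC10 than in pBIC and 11 lower in pBIC than in YC, and without the third pBIC10 library 2 were higher in pBIC10 than in pBIC. Markers of cycling cells differed from this: 0 of 8 were higher and 5 were lower in pBIC10 than in pBIC, with Plk1 at 18.9 ± 6.50 against 81.5 ± 17.2 CPM (−2.11 ± 0.25), Ccnb1 at 15.8 ± 5.55 against 47.6 ± 13.2 CPM and Cdk1 at 41.1 ± 4.75 against 91.3 ± 27.2 CPM. Mki67 was lower in both lymphomas than in YC, at 481 ± 29.3 and 464 ± 243 against 1052 ± 252 CPM. It was the only marker called in pBIC against YC, where 7 of 8 were not called and the median log2 fold change of the list was 0.05. The part of cell cycle phase in the G1 levels was not tested. The count of 5 fell to 3 without the first or second pBIC10 library or the second pBIC library. Against YC, 7 of 8 were lower in pBIC10, and 4 without the first or second pBIC10 or the third YC library.

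Genes with the most similar profile to the called members were found among 12887 genes by the root mean square difference of centred log2 CPM over the 10 libraries. Ccnd3-ps (0.12) and Ift22 (0.17) lay closest to Ccnd3, and Smpdl3a (0.23) and Foxo1 (0.27) to Cdkn2c. Snu13 (0.09) and Adsl (0.11) lay closest to Cdk4, and Snrpb2 and Ndufa9 (both 0.09) to Ccne1. For Ccne2 the closest were Pknox1 (0.30) and Zfp874b (0.31). The genes that change most had more distant neighbours, LOC118568325 (0.53) and Sh3rf1 (0.55) for Ccnd1 and Vmn2r1 and B4galt6 (both 0.62) for Cdkn2a. B4galt6 averaged 81.6, 75.6 and 0.867 CPM in pBIC10, pBIC and YC.

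Markers of other cells differed between groups as well. Their counts stand beside 15.6% of all genes tested higher and 15.1% lower in pBIC10 against pBIC. The shares were 26.4% and 27.7% in pBIC against YC, and 24.8% and 26.9% in pBIC10 against YC. The summed level of 10 T cell markers was 12.6 to 77.0 CPM in pBIC10, 43.0 to 84.0 CPM in pBIC and 139 to 419 CPM in YC, and 9 of 10 were lower in each lymphoma than in YC. Between the lymphomas, 9 of 10 were lower in pBIC10 than in pBIC, among them Cd3e (−2.07 ± 0.59, adjusted p = 0.0176). The other, Il7r, was higher, at 6.67 to 69.3 CPM in pBIC10 against 0.904 to 2.04 CPM in pBIC, and its level makes the sums overlap. The 6 NK cell markers summed to 0.871 to 2.77, 3.37 to 15.7 and 24.8 to 72.9 CPM, and the 8 myeloid markers to 13.2 to 14, 9.42 to 61.0 and 99.2 to 163 CPM. Ccnd3, Cdkn2c and Cdkn2d were also lower in both lymphomas than in YC. In pBIC10 against pBIC these genes were higher (1.22, 1.36 and 0.74), the direction opposite to 9 of 10 T cell markers. The part of such cells in the levels of Ccnd3, Cdkn2c and Cdkn2d was not tested. Red cell precursor markers summed to 844 to 1794 CPM in pBIC10, 213 to 795 CPM in pBIC and 296 to 648 CPM in YC, and 0 of 8 were called between the lymphomas. Against YC, 4 of 8 were higher in pBIC10, namely Hba-a1 (adjusted p = 0.0426), Hba-a2 (adjusted p = 0.0367), Alas2 (adjusted p = 0.0209) and Tfrc (adjusted p = 0.00250), and 1 of 8, Tfrc, was higher in pBIC (adjusted p = 0.00428). Their part in the higher Ccnd1 and Rb1 levels of pBIC10 was not tested. Of the 8 stromal and endothelial markers, Dcn had 0 counts in both lymphoma groups and Pecam1 held most of the sum, 78.9 to 102 CPM in pBIC10, 104 to 119 CPM in pBIC and 77.3 to 117 CPM in YC. Only 2 of the 8 were tested, with 1 higher in pBIC10 than in pBIC, 1 lower in pBIC than in YC and 0 called in pBIC10 against YC. Cdh5 averaged 2.97 CPM in pBIC10, 0.555 CPM in pBIC and 2.07 CPM in YC. The part of stromal and endothelial cells in the G1 levels was not tested. The 8 B cell markers were present in all libraries, with sums of 2716 to 4578, 2290 to 3823 and 8444 to 10637 CPM. Of these 8, 7 were lower and 0 higher in each lymphoma than in YC, while 3 were higher and 1 lower in pBIC10 than in pBIC. All 8 germinal centre markers were lower in both lymphomas, with sums of 41.2 to 87.3 and 62.1 to 79.7 against 788 to 1344 CPM in YC. The 7 plasma cell markers summed to 398 to 434, 573 to 990 and 1452 to 3106 CPM. In each lymphoma 6 of these 7 were lower than in YC, among them Prdm1, the floxed Blimp1 gene.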

How the data were processed

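Poly(A) RNA of sorted splenic B cells was sequenced from 1 end over 50 nt, per the labels' protocols. The deposited table holds unnormalised counts, 1 row per gene and 1 column for each of the 10 libraries. FastQC, featureCounts and the genome GRCm39 are named in the submitters' processing notes, while for aligner, annotation, strand setting and versions the sources used here give nothing. The 10 genes, the pathway lists, the motifs and the tests were chosen with earlier results of these data known.

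Groups followed the labels and the series description, which names the YC cells as normal although some YC labels repeat the lymphoma wording. Genes passing filterByExpr of edgeR 4.0.16 (R 4.3.3) were scaled by TMM and fitted with 1 coefficient per group over all 10 libraries (robust quasi-likelihood F test, two-sided, Benjamini-Hochberg within a comparison over 17718 genes). The common dispersion was 0.0835. Standard errors are the fold change divided by the square root of F, and intervals are approximate. Ratios within a library had 0.5 counts added, and profiles used log2 CPM with a prior count of 2. A floor of 3 counts was worth 0.154 to 0.246 CPM, and it covers counting error only.

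Named were all 10 members, up to 3 called genes per direction and pathway list with the smallest adjusted p, and the 2 nearest profiles of each called member, leaving out members, immunoglobulin, T cell receptor, mitochondrial, sex-linked and Gm or Rik genes. The nearest profiles of Cdk6 are not reported here. Opposite-strand neighbours, Il10 and the relatives of named genes were added after their values were seen. Exon lengths and shared windows came from GENCODE M21 and promoters from RefSeq, both on an earlier build (GRCm38), matched by symbol. Alternatives tried were DESeq2 1.42.0, limma-voom (limma 3.58.1), other scalings, filters and thresholds, fits of 2 groups, females alone, sex as a covariate, no immunoglobulin genes, each library left out and, after seeing the data, Ccnd3 with Ccnd3-ps and principal transcript lengths. Before use, the fit was tested on simulated data. Python 3.11.15 with matplotlib 3.10.9 drew the figures.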

Additional observations from a re-analysis of the deposited data

How the results depend on the processing

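Across 24 settings and 30 combinations of gene and comparison, no call changed direction. The calls of Ccnd1, Ccnd3 and Cdkn2c between the lymphomas, and those of Ccnd1, Cdk6, Cdkn2a and Cdkn2c against YC, held in every setting run. The 2 genes lower in pBIC10 than in pBIC (Cdk4 and Cdkn2a) were 1 with limma-voom, in the fit of 2 groups and with sex as a covariate, and 0 among females alone, at an adjusted p under 0.01 and with a 2-fold minimum; leaving out 1 library gave 0 to 2. With a 2-fold minimum, 3 genes were higher in pBIC than in YC and 1 was lower in pBIC10 than in YC. These thresholds test fewer or larger changes by construction, and for the other settings the cause was not tested. Without division by length, the D-type cyclin shares moved to 40.5% (Ccnd1), 30.4% (Ccnd2) and 29.2% (Ccnd3) in pBIC10, 16.6% (Ccnd1) and 66.4% (Ccnd2) in pBIC, and 1.51% (Ccnd1) in YC. Per kb of principal transcript, Ccnd1, Ccnd2 and Ccnd3 made up 36.7, 16.4 and 46.9% in pBIC10, 19.4, 46.5 and 34.1% in pBIC and 1.2, 20.2 and 78.6% in YC. Both follow from the lengths used. No paired analysis was possible because the groups share no mouse or replicate numbers in the labels. Counts of 9 to 22 limit the precision of Cdkn2a in YC.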
